A study of Mus musculus with 13 samples.

Results

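Pigment cells and Schwann cells share an origin in the neural crest, and both can lie within a skin tumor. Their levels were read here from 8 genes chosen by name as genes of these cells, Mitf, Sox10, Tyr, Tyrp1, Dct, Pmel, Mlana and S100b, out of 21100 genes in the table. Poly(A) RNA of 13 whole mouse basal cell carcinomas (BCC) was sequenced, 1 library per tumor. The GEM-BCC group held 9 tumors (GEM1 to GEM9) from 7 female Ptch1+/- K14-CreER2 p53fl/fl mice, in which tumors arose in the dermis after 3 tamoxifen injections of 300 µg and 4 Gy of X-ray. The Tp-BCC group held 4 tumors (TP1 to TP4), each grown under the skin of a separate female Ptch1+/- p53fl/fl mouse after inoculation of 2000000 BCC cells. The hosts of the Tp-BCC tumors carried no Cre. No age was given in the labels.

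The Cre of the GEM-BCC mice is driven by the promoter of K14, a keratin of basal keratinocytes, so p53 deletion was directed to cells in which that promoter is active. Every Tp-BCC tumor descends from 1 GEM-BCC tumor. One mouse bore both GEM2 and GEM3 and another both GEM7 and GEM8, so p-values measure the spread between these tumors, not between as many mice. All GEM-BCC libraries carry batch label 1 and all Tp-BCC libraries batch label 2, and the model and the batch cannot be told apart. Libraries of the GEM-BCC group held 28075317 to 32629102 counts and those of the Tp-BCC group 15388027 to 17494912. Levels are given as CPM, the read count scaled to a common library size, on which a count of 3 corresponds to between 0.0857 and 0.109 CPM for GEM-BCC and between 0.177 and 0.214 CPM for Tp-BCC libraries, and lower values are taken as not measurable. The 4 Tp-BCC libraries fell into pairs, because the level of a gene, taken against its average over tumors, rose with GC content in TP2 and TP4 (Spearman rho over genes 0.594 and 0.591) and fell with it in TP1 and TP3 (rho -0.389 and -0.473). Among GEM-BCC libraries it rose in GEM1 (rho 0.365) and fell in the other 8 (rho -0.312 to -0.15). The keratinocyte identity of the tumors was clear in both models, with a summed level of Krt5, Krt14, Krt17 and Trp63 of 10900 to 16700 CPM in GEM-BCC and 7580 to 19700 CPM in Tp-BCC tumors.

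Melanocytes make melanin in a dedicated organelle, the melanosome, and pass it to keratinocytes and hair. Sox10 activates Mitf in this lineage, and Mitf in turn binds E-box elements in the promoters of the pigment genes Tyr, Tyrp1 and Dct. Schwann cells keep Sox10, lack the pigment genes and carry S100b, a calcium-binding protein that adipocytes and some other cells also make.

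The promoters of the pigment enzymes are shown because they hold the element through which Mitf is known to act on them. RefSeq promoter sequences (GRCm38.p6, 250 bases before to 50 after a start) were matched for 5 of the 8 genes, with 7 start sites in all. Sox10, Pmel and Mlana had no entry. CATGTG was found, on either strand, in Tyr, Tyrp1 and Dct. In the 30-base windows printed here, 5′ to 3′, capitals mark CATGTG.
Tyr, chr7:87493516-87493545, minus strand: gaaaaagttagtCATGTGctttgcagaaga
Tyrp1, chr4:80834155-80834184, plus strand: tggggagggagtCATGTGctgcctagtagt
Dct, first match, chr14:118052379-118052408, minus strand: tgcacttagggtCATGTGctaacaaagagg
Dct, second match, chr14:118052461-118052490, plus strand: ctttattgggctCATGTGtcccagccaagc

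The matches lie 21 bases before the start of Tyr, 46 before that of Tyrp1, and 150 and 232 before that of Dct, where the second reads on the strand opposite to the gene. Over all 32851 promoters of this length, 14.2% held this element. The other E-box searched for, CACGTG, was in 7.2% of all promoters and in none of these 7. Of the letters bound by Sox factors, ACAAAG (18.7% of promoters) occurred 1 time in Tyrp1 and 2 times in Dct, and ACAATG (12.6%) 1 time in Dct. None of these 4 motifs, searched on both strands, was in the 3 Mitf promoters or that of S100b. A match is a description of the letters and does not show binding.

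**Figure D1:**
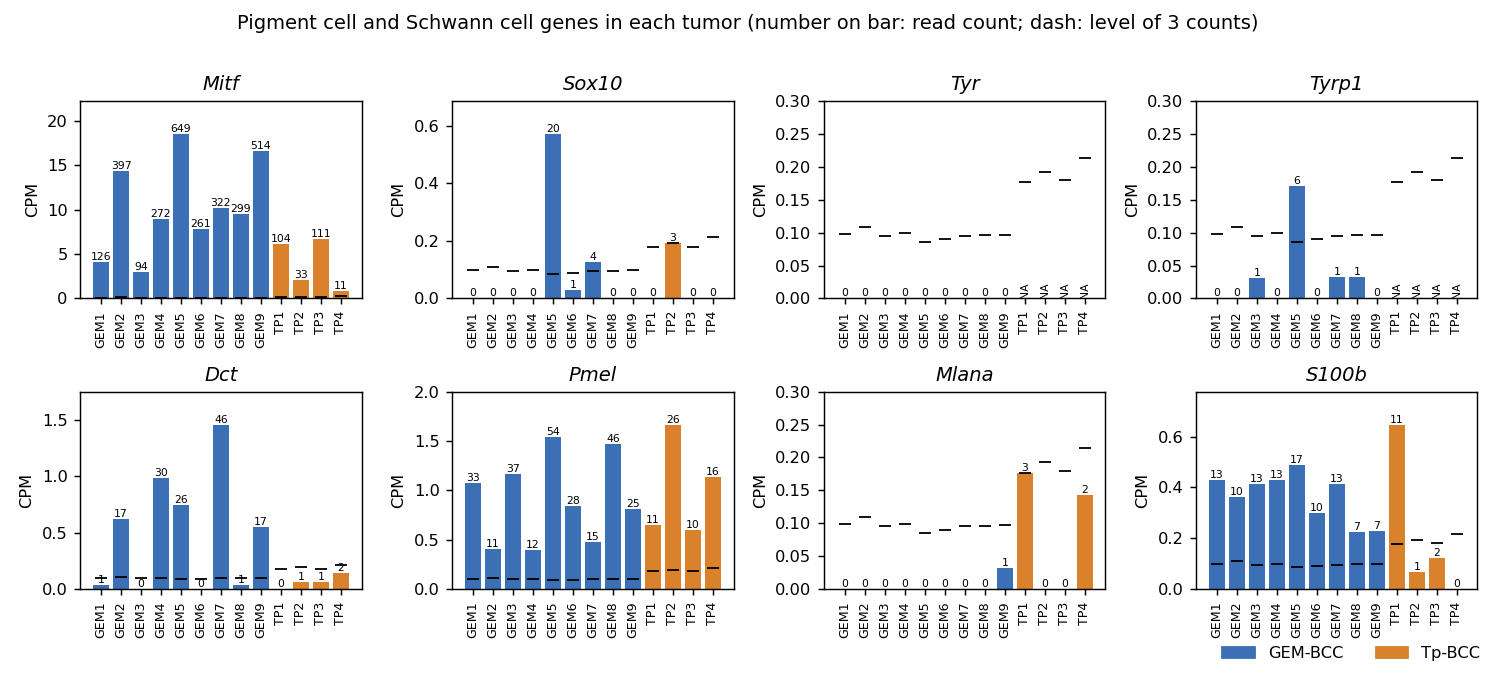
Level of each of the 8 genes in each tumor, in CPM (y axis, linear, 1 scale per gene), with the read count above each bar, GEM-BCC in blue and Tp-BCC in orange. Black dashes mark the level of 3 counts, and NA marks a tumor with no value. Mitf and Pmel stand above the dashes in all 13 tumors, Dct in 5 GEM-BCC tumors, and Tyr in none.

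Mitf, the transcription factor at the head of the pigment program, which other cell types also express, had the highest counts of the members. It and Pmel alone reached 10 counts in every tumor. In GEM-BCC tumors its level had a lowest value of 2.97 CPM (GEM3), a median of 9.54 and a highest of 18.5 (GEM5). In Tp-BCC tumors it was 6.12 in TP1, 2.12 in TP2, 6.64 in TP3 and 0.785 CPM in TP4. The Tp-BCC values lay in the lower part of the GEM-BCC range or below it, and the groups overlapped. Means were 10.4 ± 5.3 CPM (SD, n = 9) and 3.92 ± 2.91 CPM (SD, n = 4). The log2 fold change, Tp-BCC over GEM-BCC throughout, was -1.40 ± 0.57 (SE), with an unadjusted p of 0.0252 in edgeR's quasi-likelihood test and 0.0931 after adjustment over all 14390 genes tested. Mitf was therefore not called, a call needing both an adjusted p under 0.05 and a log2 fold change beyond 2 in either direction. With the pairs of Tp-BCC libraries taken separately, a choice made after seeing the data, the fold change was -2.82 (adjusted p = 0.00734) for TP2 and TP4 and -0.70 (adjusted p = 0.459) for TP1 and TP3. In bulk tissue, fewer cells of a type and less RNA per cell cannot be told apart.

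Sox10, the factor shared by melanocytes and Schwann cells, was close to absent from the libraries. It was at 0 counts in 6 of 9 GEM-BCC tumors, with 20 counts in GEM5 (0.571 CPM), 4 in GEM7 and 1 in GEM6. In Tp-BCC tumors it had 3 counts in TP2 and 0 in TP1, TP3 and TP4. Only GEM5 and GEM7 exceeded 3 counts. Means were 0.0809 ± 0.189 CPM (SD, n = 9) and 0.0482 ± 0.0964 CPM (SD, n = 4), and a 2-sided exact permutation test over every way of dividing 13 tumors into 9 and 4 gave p = 1.0. Sox10 was below the count filter (10 counts in at least 4 tumors) and has no fitted fold change. The pooled GEM-BCC level was 1.87 times the pooled Tp-BCC level, with an exact 95% interval for counting error alone of 0.57 to 9.67, so that neither direction could be resolved at this depth.

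Tyr encodes tyrosinase, which catalyzes the first and rate-limiting step of melanin synthesis. It was at 0 counts in all 9 GEM-BCC tumors, and over their pooled counts 3 reads would be 0.0106 CPM, the level that a count of 0 allows. Tyrp1, the tyrosinase-related enzyme of the eumelanin branch, had 6 counts in GEM5 (0.171 CPM), 1 count each in GEM3, GEM7 and GEM8, and 0 in the other 5 tumors. GEM5 was the one GEM-BCC tumor above 3 counts. Neither gene has a value in the Tp-BCC tumors, where no comparison was possible.

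Dct, dopachrome tautomerase, acts in the same branch of melanin synthesis and is also a marker of pigment cell precursors. Among GEM-BCC tumors its level was lowest at 0 CPM in GEM3 and GEM6, had a median of 0.55 and was highest at 1.46 in GEM7. GEM2, GEM4, GEM5, GEM7 and GEM9 held 17 to 46 counts, while GEM1, GEM3, GEM6 and GEM8 held 0 or 1. The tumors that held it did not follow the mouse: GEM2 had 17 counts and GEM3 of that mouse 0, and GEM7 had 46 and GEM8 of that mouse 1. In Tp-BCC tumors there were 0 counts in TP1, 1 in TP2, 1 in TP3 and 2 in TP4, all at or under 0.143 CPM and below the level of 3 counts. These values coincided with those of the GEM-BCC tumors without Dct, so the groups overlapped. Dct reached 10 counts in GEM-BCC tumors alone, and so passed the filter only through the group in which it was high. Means were 0.492 ± 0.522 CPM (SD, n = 9) against 0.0667 ± 0.0586 CPM (SD, n = 4), and the log2 fold change of -2.84 ± 1.40 (SE) had an edgeR adjusted p of 0.163. The annotation places Dct over 1891 bases of an antisense transcript, 4930435M08Rik, on the opposite strand, and counting was stated to use strand.

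Pmel and Mlana encode proteins of the early melanosome, Pmel its fibrils. Pmel was detected in all tumors at low level, from 0.395 CPM in GEM4 through a median of 0.837 to 1.54 in GEM5. In Tp-BCC tumors it was 0.647 CPM in TP1, 1.67 in TP2, 0.598 in TP3 and 1.14 in TP4. The groups overlapped over nearly their whole range, and TP2 was the highest of all 13 tumors. The log2 fold change was 0.15 ± 0.47 (SE), with an edgeR adjusted p of 0.847, and its sign turned with TP2 and TP4 left out (-0.55) and with a correction for GC content (-0.12). On the opposite strand, 837 bases of Pmel overlap Cdk2 and 105 overlap Dgka, which stood at 30.6 to 101 CPM and 14.6 to 94 CPM.

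Pmel did not follow Dct from tumor to tumor. GEM3 had 37 counts of Pmel with 0 of Dct and 94 of Mitf, and GEM8 had 46 of Pmel with 1 of Dct and 299 of Mitf. Mlana, in contrast, had 1 count in GEM9 and 0 in the other 8 GEM-BCC tumors, and 3 counts in TP1, 0 in TP2, 0 in TP3 and 2 in TP4. No tumor exceeded 3 counts, the exact permutation p was 0.1538 (2-sided), and no fold is given.

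S100b was low and even among GEM-BCC tumors and uneven among Tp-BCC tumors. It had 7 to 17 counts in GEM-BCC tumors, or a lowest level of 0.223 CPM (GEM8), a median of 0.411 and a highest of 0.486 (GEM5). In Tp-BCC tumors it was 0.647 CPM in TP1 (11 counts), 0.0643 in TP2, 0.12 in TP3 and 0 in TP4. TP1 was above every GEM-BCC tumor and the other 3 Tp-BCC tumors, at 2 counts or fewer, were below every one. Means were 0.364 ± 0.0939 CPM (SD, n = 9) and 0.208 ± 0.297 CPM (SD, n = 4), with a log2 fold change of -0.76 ± 0.66 (SE) and an edgeR adjusted p of 0.432. One library decided this value: without TP1 the fold change was -2.43 with an adjusted p of 0.0299, and S100b was then called lower in Tp-BCC. Without TP2 and TP4 it was 0.075 (adjusted p = 0.953). S100b overlaps 1731 bases of Dip2a on the opposite strand, a gene at 25.3 to 63.1 CPM.

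Of the 8 genes, then, 4 passed the filter on low counts and 4 did not, and 0 were called by edgeR, with 1 at an unadjusted p under 0.05 (Mitf). DESeq2 called 0 as well. Among all genes tested, 5.57% were called, of which those higher in Tp-BCC made up 2.36% and those lower 3.21% of the genes tested. The median log2 fold change was -1.08 over the 4 tested members and -0.027 over all tested genes. Mitf and Pmel reached 10 counts in all 13 tumors. Dct passed the filter through GEM-BCC tumors alone and S100b mainly through them, the group in which the means of both were higher. This median therefore does not describe the 8.

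Set on a scale per transcript length, the order of the levels in GEM-BCC tumors was led by Mitf at 2.12 ± 1.09 CPM per kb (SD, n = 9). Pmel followed at 0.427 ± 0.206, S100b at 0.245 ± 0.0633 and Dct at 0.223 ± 0.237 CPM per kb. Single tumors ranged from 0.609 to 3.8 CPM per kb for Mitf and from 0.186 to 0.724 for Pmel, so these neighbours overlapped at their edges, and the ranges of Pmel, S100b (0.151 to 0.327) and Dct (0 to 0.664) overlapped broadly. Sox10 (0.0291), Tyrp1 (0.0109), Mlana (0.00396) and Tyr (0 CPM per kb) came last, with neighbours that did not differ beyond their spread. In Tp-BCC tumors the level of Mitf was 0.803 ± 0.595 and that of Pmel 0.476 ± 0.236 CPM per kb (SD, n = 4), which overlapped.

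GEM5 was the tumor in which most of these genes were at their highest. It held the highest count of Mitf (649), Sox10 (20), Tyrp1 (6), Pmel (54) and S100b (17) among the 9 GEM-BCC tumors, together with 26 counts of Dct, and 0 of Tyr and Mlana. Pax3, a factor that acts with Sox10 on Mitf, had 29 counts in GEM5 and 0 in the other 8.

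A wider list of 18 melanocyte genes, without the members, was read in the same fit. Of its 12 tested genes, 2 were called higher and 2 lower, against 2.36% and 3.21% of all tested genes. The median log2 fold change of the 12 was -0.40. By adjusted p alone, 3 were higher, 2 were lower and 7 did not pass, against 1591 higher and 1201 lower of all 14390 genes tested. The 4 called genes do not include an enzyme or structural protein of the melanosome, but Tyr, Tyrp1, Dct, Pmel and Mlana, as members, were not on the list. Its melanosome genes Oca2, Slc24a5, Slc45a2 and Gpr143 were not tested. Gpnmb, Tpcn2 and Rab32, also on the list and named after their values were seen, were tested and not called. Their log2 fold changes were -0.06 (edgeR adjusted p = 0.967), 0.05 (0.899) and 1.445 (0.00502), that of Rab32 being under the fold threshold. The lack of such a call therefore covers only a part of the melanosome genes.

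**Figure D2:**
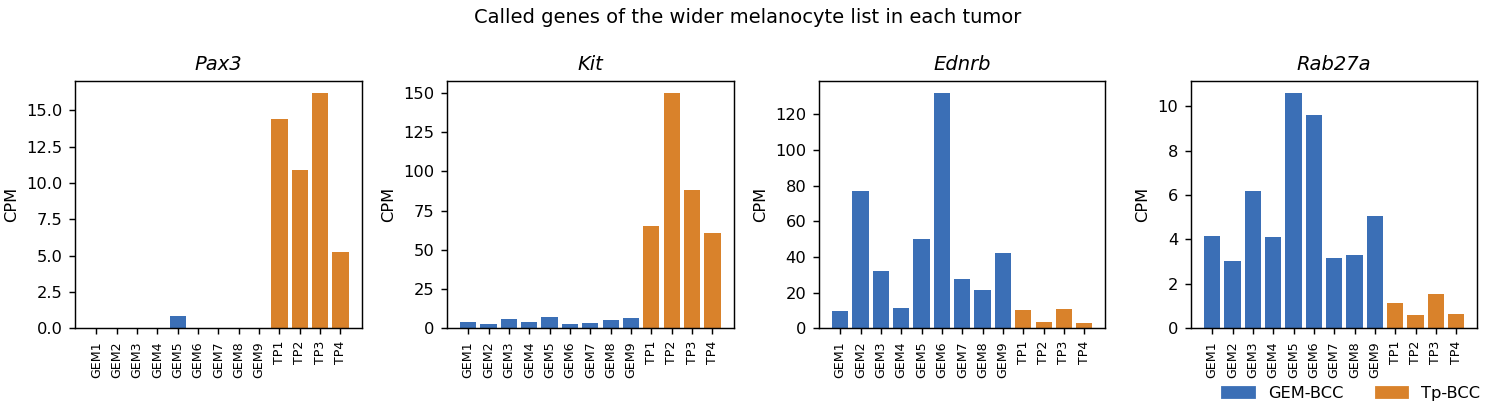
Level in CPM (y axis, linear from 0, 1 scale per gene) of the 4 called genes of the wider melanocyte list in each tumor, GEM-BCC in blue and Tp-BCC in orange. Pax3 and Kit were higher in every Tp-BCC tumor than in any GEM-BCC tumor, Rab27a was lower in every one, and the Ednrb ranges overlapped slightly. The 4 were picked because they were called, and the share of all genes without overlap was not computed.

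Pax3 was the most changed. It stood at 14.4 CPM in TP1, 10.9 in TP2, 16.2 in TP3 and 5.28 in TP4, against 0.828 CPM in GEM5 and 0 in the other GEM-BCC tumors. The groups did not overlap. The log2 fold change was 6.85 ± 1.10 (SE; edgeR adjusted p = 6.99e-04), and since GEM5 alone has counts in its group, the fitted size depends on that tumor. Without GEM5 the fitted value of 11.2 rests on a group at 0 and is no measure of size. All 4 Tp-BCC tumors but only GEM5 of the other group reached 10 counts. Pax3 thus passed the filter only through the group in which it was high. Pax3 also marks muscle precursors and dermomyotome derivatives. Pax7, the related factor of muscle stem cells, was at 0 in all GEM-BCC tumors and has no value in Tp-BCC. The summed level of the muscle list was 1.59, 10.3, 2.45 and 126 CPM in TP1 to TP4 against 1.74 to 6.23 CPM in GEM-BCC tumors. TP4, highest in muscle genes, was lowest of the 4 in Pax3, and TP3, highest in Pax3, was within the GEM-BCC range of muscle genes. The part of muscle cells or their precursors in the Pax3 difference was not tested.

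Kit, the receptor for stem cell factor on melanoblasts and mast cells, was at 65.3, 150, 88 and 60.5 CPM in TP1 to TP4. In GEM-BCC tumors it ranged from 2.51 through a median of 3.99 to 7.14 CPM (GEM5), with no overlap. The log2 fold change was 4.32 ± 0.31 (SE; edgeR adjusted p = 3.94e-07). Of 7 genes of mast cells, another Kit-bearing cell type of skin, 5 were tested and 0 called. All 5 had fold changes above 0, with a median log2 fold change of 1.40, and the summed level of the list was 3.53 to 11 CPM in Tp-BCC and 0.33 to 8.03 CPM in GEM-BCC tumors. TP2, highest in Kit, had 7.91 CPM of mast cell genes and TP1 had 11. The part of mast cells, or of any other cells, in the Kit difference was not tested. In the same Tp-BCC tumors Sox10, Mlana and Dct were at 3 counts or fewer.

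Ednrb, the endothelin receptor needed by melanoblasts and also present on vessels, was at 10.5, 3.54, 10.7 and 3.14 CPM in TP1 to TP4, against a lowest of 9.96, a median of 31.9 and a highest of 132 CPM (GEM6) in GEM-BCC tumors. TP1 and TP3 lay just above GEM1, and TP2 and TP4 below all. The log2 fold change of -2.69 ± 0.69 (SE) had an edgeR adjusted p of 0.0138, which rose to 0.0526 without TP2 and to 0.149 without TP2 and TP4. Rab27a, which tethers melanosomes for transport and serves secretion in other cells, was at 1.12, 0.578, 1.56 and 0.642 CPM in TP1 to TP4 and at 3.01 to 10.6 CPM in GEM-BCC tumors. Its log2 fold change was -2.48 ± 0.48 (SE; edgeR adjusted p = 0.00271). Trpm1, the only other defining melanocyte gene that was tested, had a log2 fold change of -1.12 (adjusted p = 0.247).

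Among the 7 genes listed as defining pigment cells, which include Pax3, Trpm1 ranged from 6 to 65 counts over GEM-BCC tumors, with 10, 6, 9 and 3 in TP1 to TP4, and the other 5 were low. Oca2, a melanosomal transporter, had 1 to 8 counts in GEM-BCC tumors and 0 in all 4 Tp-BCC tumors. Mc1r, the melanocortin receptor, had 3 to 19 counts in GEM-BCC tumors and 1, 0, 0 and 0 in TP1 to TP4. Slc24a5, an ion exchanger of the melanosome, reached 27 counts in GEM2 and had 0 or 1 in Tp-BCC tumors, and Slc45a2 had at most 4 counts in GEM-BCC tumors and no value in Tp-BCC. Gpr143, a melanosomal receptor, had 0 to 7 counts in GEM-BCC tumors and 3, 1, 2 and 3 in TP1 to TP4. These 5 genes were named outside the rule, after their values were seen, and none was tested. As ratios of pooled levels, GEM-BCC over Tp-BCC, with exact 95% intervals for counting error alone, Mc1r stood at 18.2 (3.17 to 726), Slc24a5 at 8.75 (2.34 to 73.5) and Gpr143 at 0.399 (0.166 to 1.02), and the lower limit for Oca2 was 1.59. These intervals leave out the spread between tumors, and the Mc1r ratio rests on 1 count in Tp-BCC. The mean of Oca2 in GEM-BCC tumors, 0.101 CPM, was itself under the level of 3 counts in every Tp-BCC library. The list thus held genes on both sides, with Pax3 higher in Tp-BCC. Its sum was 5.71 to 16.9 CPM in Tp-BCC against 0.905 to 2.89 CPM in GEM-BCC tumors. Most of the Tp-BCC sum was Pax3: 14.4, 10.9, 16.2 and 5.28 CPM of 15.2, 11.4, 16.9 and 5.71 CPM in TP1 to TP4. The sum therefore does not describe the other genes of the list.

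**Figure D3:**
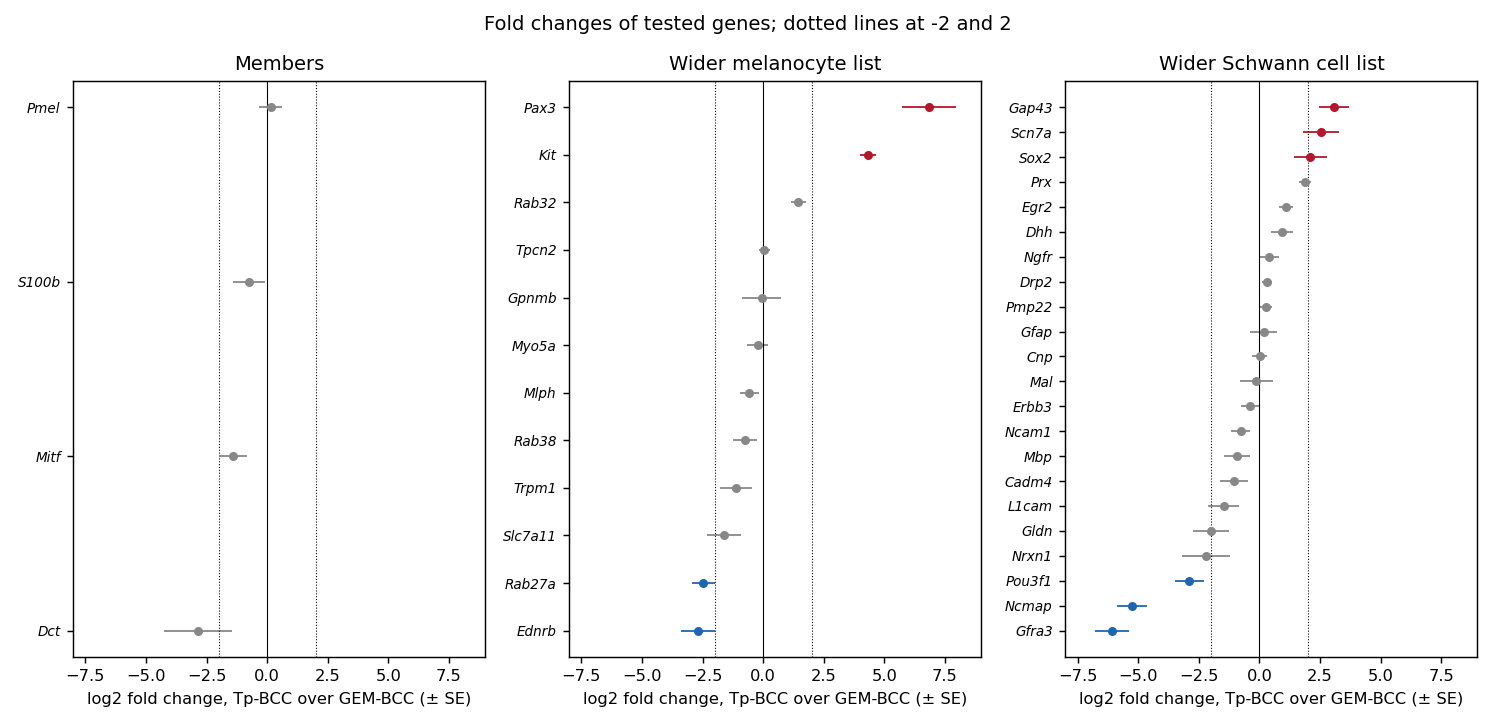
Log2 fold change, Tp-BCC over GEM-BCC (x axis, ± SE), of the tested members (left), the wider melanocyte list (middle) and the wider Schwann cell list (right), with called genes in red (higher) or blue (lower) and others in grey, and 2 tested genes of the Schwann cell list not shown. Of the members, 0 of 4 were called, whereas the wider lists hold 2 higher and 2 lower, and 3 higher and 3 lower.

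Of 30 Schwann cell genes, 24 were tested, with 3 called higher and 3 lower, against 2.36% and 3.21% of all tested genes. The median log2 fold change of the 24 was -0.05. By adjusted p alone, 5 were higher, 3 lower, and 16 did not pass, against 1591 higher and 1201 lower of all 14390 genes tested. The list thus moved in both directions. The genes called lower were Gfra3, a receptor subunit for the neurotrophic factor artemin, Ncmap, a myelin protein, and Pou3f1, a transcription factor of promyelinating Schwann cells and of keratinocytes.

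Gfra3 was at 0.589, 0.9, 0.299 and 0.714 CPM in TP1 to TP4 and at 6.61 to 109 CPM in GEM-BCC tumors, a log2 fold change of -6.09 ± 0.71 (SE; edgeR adjusted p = 4.08e-05). Ncmap was at 0.239 CPM or less in the 4 Tp-BCC tumors and at 2.6 to 9.74 CPM in GEM-BCC tumors (log2 fold change -5.26 ± 0.62, SE; edgeR adjusted p = 4.39e-05). Pou3f1 was at 3.47 to 9.14 CPM in Tp-BCC and 9.3 to 72.6 CPM in GEM-BCC tumors (-2.89 ± 0.61, SE; edgeR adjusted p = 0.0043). The 3, picked because they were called, did not overlap between models, and the share of all genes without overlap was not computed. Hair follicle genes moved beside them: of 18 genes of the hair matrix and inner root sheath, 9 were tested, and 4 were called lower (Msx2, Krt73, Foxn1 and Krt71) and 0 higher, with summed levels of 55.4 to 112 CPM in Tp-BCC and 86.6 to 217 CPM in GEM-BCC tumors. The part of hair follicle cells in the lower Gfra3, Ncmap and Pou3f1 was not tested. Over all tested genes, 3.21% were called lower. Ncmap, Msx2, Krt73 and Foxn1 reached 10 counts in GEM-BCC tumors alone, and so passed the filter only through the group in which they were high.

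The genes called higher were Gap43, a protein of growing axons and immature Schwann cells, Scn7a, a sodium channel of nonmyelinating Schwann cells, and Sox2, a factor of immature Schwann cells and of epithelial progenitors. Gap43 was at 8.38 to 10.9 CPM in Tp-BCC and 0.0726 to 3.35 CPM in GEM-BCC tumors (log2 fold change 3.09 ± 0.63, SE; edgeR adjusted p = 0.00354). Scn7a was at 3.53 CPM in TP1 and 3.83 in TP3 but at 0.643 in TP2 and 0.714 in TP4, within the GEM-BCC range of 0 to 0.914. Its log2 fold change of 2.53 ± 0.73 (SE; edgeR adjusted p = 0.025) fell to 0.86 (adjusted p = 0.493) without TP1 and TP3, and the call was lost without TP1 (adjusted p = 0.075) or TP3 (0.0725) alone. Sox2, the sixth called gene and outside the rule for naming, was at 2.65, 1.61, 2.63 and 3.5 CPM in TP1 to TP4 and at up to 2.06 CPM in GEM-BCC tumors, which overlapped (2.09 ± 0.68, SE; edgeR adjusted p = 0.0419), and it passed the adjusted threshold in 9 of 25 alternative fits.

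Defining Schwann cell genes gave no common direction, with Ncmap lower and Scn7a higher, as given. Prx, periaxin of myelinating Schwann cells, had an edgeR adjusted p of 1.58e-04 at a log2 fold change of 1.88 ± 0.25 (SE), under the fold threshold. It stood at 123 and 125 CPM in TP2 and TP4, 57.7 and 57.2 in TP1 and TP3, and 16.7 to 33.4 CPM in GEM-BCC tumors. Cdh19, a Schwann cell precursor cadherin chosen after its values were seen, had 0 counts in all GEM-BCC tumors and 4, 0, 14 and 1 in TP1 to TP4. Foxd3 was at 0 in the GEM-BCC tumors and had no value in Tp-BCC.

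The split of the Tp-BCC libraries by GC content was seen in some of these results but not in all. Mitf, Scn7a and Ednrb were higher in TP1 and TP3 than in TP2 and TP4, and Prx was lower. Kit, at 65.3, 150, 88 and 60.5 CPM in TP1 to TP4, did not split this way. As transcript medians, Mitf holds 49.56% GC, S100b 48.32%, Dct 49.68%, Pmel 54.99%, Mlana 46.58% and Sox10 61.76%. The other cells of these samples split in part the same way: skeletal muscle genes were highest in TP4, and adipocyte genes summed to 220 CPM in TP2, 25.6 in TP4, 13.7 in TP1 and 15.1 in TP3, against at most 3.38 CPM in GEM-BCC tumors. Of the 7 adipocyte genes, 4 were tested (Cfd, Cidec, Fabp4 and Adipoq), and all 4 were called higher in Tp-BCC, against 2.36% of all tested genes. Cfd and Cidec reached 10 counts in Tp-BCC tumors alone, and so passed the filter only through the group in which they were high. S100b, which adipocytes express, was at 11, 1, 2 and 0 counts in TP1 to TP4. The part of adipocytes in the level of S100b was not tested. The part of GC content in the differences between libraries was not tested for single members beyond the corrected fits.

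Of 13 genes for signals that act on pigment cells or Schwann cells, 12 were in the table and 10 were tested. The median log2 fold change of these 10 was 1.06. Against 2.36% of all tested genes called higher and 3.21% lower, 0 of the 10 were called lower and 4 higher. They were Fgf2 (4.10 ± 0.65, SE), a growth factor for melanocytes, Bmp4 (3.04 ± 0.32), a morphogen of the neural crest, Kitl (2.54 ± 0.49), which encodes the Kit ligand, and Gdnf (2.31 ± 0.32), a neurotrophic factor, with edgeR adjusted p of 6.26e-04, 1.39e-05, 0.00245 and 1.80e-04. Kitl was at 26.5, 5.46, 49.1 and 12.6 CPM in TP1 to TP4 and at 2.17 to 10.7 CPM in GEM-BCC tumors, which overlapped. Among 7 relatives and partners of Mitf and Sox10, all tested, 1 was called: Lef1, a Wnt effector that binds with Mitf, at 22.9 to 42.7 CPM in Tp-BCC and 1.2 to 5.19 CPM in GEM-BCC tumors (log2 fold change 2.99 ± 0.30, SE; edgeR adjusted p = 1.01e-05). Sox9 (0.08), Tfe3 (0.41) and Tfap2a (-0.03), the best expressed of the others, did not pass the test. Of 10 neuronal genes, 4 were tested and 0 were called; their summed level was 2.4 to 15.2 CPM in GEM-BCC and 5.74 to 15.6 CPM in Tp-BCC tumors. Uchl1, Stmn2 and Tubb3 had log2 fold changes of 1.51, -1.43 and -0.26.

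**Figure D4:**
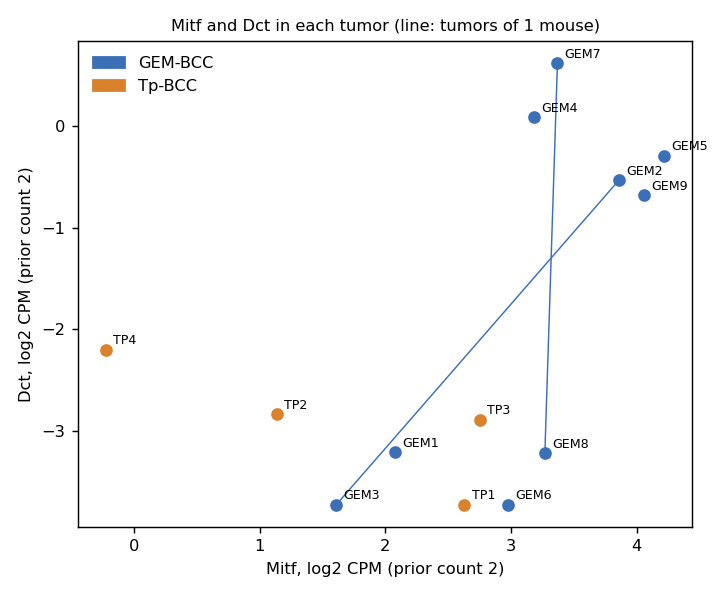
Log2 CPM of Dct (y axis) against Mitf (x axis), prior count of 2, 1 point per tumor, with a line joining tumors of 1 mouse. GEM2 and GEM3, and GEM7 and GEM8, differ widely in Dct within a mouse, and the 4 Tp-BCC tumors lie low on the Dct axis.

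Whether members varied together was asked across the 7 GEM-BCC mice, all of 1 batch, with tumors of a mouse averaged. Of 11 relations computed, the largest Pearson's r was that of Mitf with Dct, 0.71 (exact permutation p = 0.0758, adjusted 0.834) with a Spearman's rho of 0.679 (exact permutation p = 0.11, adjusted 0.605). Without the 2 mice farthest from the median of Mitf, r was 0.508. None of the 11 passed after Benjamini-Hochberg adjustment. For S100b with Adipoq, r was -0.196 (exact permutation p = 0.702, adjusted 0.942) and rho was -0.429 (exact permutation p = 0.354, adjusted 0.91).

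The genes most like a member across the 9 GEM-BCC tumors were found by Pearson's r of log2 CPM over the 12304 genes whose log2 CPM averaged 1 or more. The 9 libraries share 1 batch, and the rankings are descriptions with no test. For Dct the 8 nearest were St3gal5 (r = 0.965), Npnt (0.951), Glt28d2 (0.94), D430019H16Rik (0.94), Sgms2 (0.939), Nrp2 (0.939), Rasgef1b (0.937) and Adgrl2 (0.929), and 5 of these 8 were also among the nearest 8 over the 7 mice. No other melanocyte gene of the lists was among them. For S100b they were Acp5 (0.898), Cystm1, Dsg1b, Fam180a, Tcf7, Cdkn2a, Arl8a and Lad1 (0.838), of which 1 recurred over mice. For Sox10 they were Adam8 (0.874), Tppp3, Atxn1, Pla2g4a, Ccl6, Acrbp, Slc26a10 and Mdm2 (0.831), of which 2 recurred. The Sox10 ranking rests mainly on GEM5, since Sox10 was at 0 in 6 of the 9 tumors.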

How the data were processed

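Poly(A) RNA of 13 mouse tumors was measured. According to the study's methods and the submitters' processing notes, SOAPnuke cleaned the reads, Bowtie2 2.3.4.3 aligned them to GRCm39 transcripts and they were counted with RSEM 1.3.1 in strand-specific mode. The deposited values are RSEM expected counts per gene, neither normalized nor rounded. Of 21100 genes, 16687 have a value in all 13 tumors and 1932 in GEM-BCC tumors alone, how the gaps arose not being stated.

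Expected counts were rounded in R 4.3.3. A gene entered the test if every tumor had a value and 4 or more tumors reached 10 counts. The test was that of edgeR 4.0.16 (TMM, robust quasi-likelihood F test, no covariate), where the study used DESeq2. P-values were adjusted by Benjamini-Hochberg over all 14390 genes tested, and calls needed an adjusted p under 0.05 together with a log2 fold change beyond 2 in either direction. CPM use TMM-scaled library sizes, and log2 CPM a prior count of 2. Depth sets the precision, and counting intervals (exact, 95%) and floors (3 counts) cover counting error only. Untested members were compared by exact permutation in scipy 1.17.1. The members and gene lists were chosen with earlier results of these data known. Named genes are the 8 members, up to 5 called genes of largest fold per list, the 3 best expressed tested genes where fewer than 3 were called, and the 8 genes most like Sox10, Dct and S100b. GC content (8 of 8 members), lengths (longest coding transcript), overlaps and promoters come from GENCODE vM21 and RefSeq on GRCm38, not the files' build. Counts over the Schwann cell list and the 11 relations include 2 genes that are not reported here. The fits were tested on simulated data. Alternatives were other normalizations, filters and thresholds, DESeq2 1.42.0, counts per mouse, a replicate block, a GC correction and each tumor left out. Same-numbered tumors were of different mice and did not deviate together.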

Additional observations from a re-analysis of the deposited data

Results flagged for a closer look

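A tumor far from the others of its group was looked for in 37 groups of values and found 5 times. The usual chance rate of about 1 in 20 does not hold where all other tumors tie at 0 counts. There any single tumor with counts is flagged, as were Pax3 in GEM5, Mlana in GEM9 and Sox10 in TP2. Each of the 5 is given as log2 CPM with a prior count of 2. Sox10 was at -0.63 in GEM5 (20 counts), with the other GEM-BCC tumors between -3.73 and -2.30. Sox10 was at -1.90 in TP2 on 3 counts, with the other Tp-BCC tumors at -3.73. Tyrp1 was at -2.02 in GEM5 (6 counts), the others between -3.73 and -3.22. Pax3 was at -0.15 in GEM5 (29 counts), the others at -3.73. Mlana was at -3.22 in GEM9 on 1 count, the others at -3.73. The 3 values of GEM5 come from 1 library and are not independent of each other.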

How the results depend on the processing

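Depth limits most members: Sox10 and Mlana were under the count filter, while Tyr and Tyrp1 had no Tp-BCC values. Dct, with a log2 fold change of -3.88 to -2.12 over its alternatives, had an edgeR or DESeq2 adjusted p of 0.106 to 0.498. The number of members called was 0, and became 1 of 6 with no filter (Mlana, higher), 2 of 4 without TP1 and TP3 (Mitf and S100b, lower), and 0 to 1 with each tumor left out (1 without TP1, S100b). For Mitf the adjusted p ranged from 0.00734 to 0.663 over 25 alternatives and the fold change from -2.82 to -0.70, and DESeq2 gave 0.0306 at a fold change of -1.41, under the fold threshold. For S100b the adjusted p ranged from 0.0121 to 0.953, and -3.28 without TP1 and TP3 became 0.075 without TP2 and TP4. Pmel turned to -0.12 with the GC correction and -0.55 without TP2 and TP4, and ranged from -0.23 (without TP2) to 0.34 with single tumors left out. The cause of these shifts was not tested. The melanocyte list, with 4 called, had 2 without TP2 and TP4 (1 higher, 1 lower), 5 without TP1 and TP3 (1 higher, 4 lower) and 6 with no filter (2 higher, 4 lower). Of all genes, 801 were called (339 higher, 462 lower), against 439 where 10 or more tumors had to reach 10 counts, 1989 at a fold threshold of 1, 2792 by adjusted p alone (1591 higher, 1201 lower), 478 without TP2 and TP4 (243 higher, 235 lower) and 1850 without TP1 and TP3 (323 higher, 1527 lower), the last 2 chosen after seeing the data.

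Tumor numbers are shared between models but pair nothing: the mice differ, and the deviations of same-numbered tumors correlated at -0.381 to -0.101. With the number as a replicate block, 0 members, 2 melanocyte genes (2 higher, 0 lower), 2 Schwann cell genes (0 higher, 2 lower) and 178 genes in all (106 higher, 72 lower) were called.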
